A study of Mus musculus with 6 samples.

Results

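The epidermal differentiation complex is a gene cluster, on mouse chromosome 3 in the RefSeq annotation of GRCm38.p6, that encodes much of the protein shell of the skin's outer cells. Its envelope genes were read in cultured mouse keratinocytes on Affymetrix gene arrays. The members were taken by symbol: every gene whose name starts with Sprr or Lce followed by a digit, plus loricrin (Lor), Flg2, Ivl, Hrnr, Rptn, Kprp and Crct1. That gave 39 genes of the 19938 measured: 2 Sprr1, 9 Sprr2, Sprr3, Sprr4, 13 Lce1, 5 Lce3, Lce6a and the 7 single genes. The annotation holds 45 such symbols. Of the other 6, the near-identical copies Sprr2a1, Sprr2a2 and Sprr2a3 and the gene Lce3d were read only by probe sets shared between several genes, and Sprr2c-ps and Lce1m were not analysed here. Sprr2g and Sprr2j-ps are listed as transcribed pseudogenes.

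As a keratinocyte completes its differentiation in the upper layers, it replaces its plasma membrane with a cornified envelope, a sheet of proteins joined by transglutaminases. Involucrin (Ivl) is laid down early as a scaffold, loricrin and the small proline-rich proteins (Sprr) fill and bridge the sheet, and the late cornified envelope proteins (Lce) are added last. Flg2, Hrnr and Rptn belong to the fused S100 proteins, large repeat proteins of the granular layer. Kprp and Crct1 are further proteins of terminally differentiating keratinocytes. Calcium drives this program in culture, and none was added here.

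The 6 arrays fall into 3 groups of 2. All keratinocytes came from the skin of C57BL/6 embryos of age E18.5, were grown for 2 to 5 days without calcium, and were pooled from 2 mice per array, with littermates raised together. Control mice were either Ovol2flox/+ with Ovol1+/-, or Ovol2flox/+ with K14-Cre, so that the controls could carry a single working copy of either factor. A second pair, labelled Ovol1 KO and called KO-labelled below, came from Ovol1-/- mice. The Ovol1/2 DKO arrays came from Ovol1-/- mice that were also Ovol2flox/- with K14-Cre, a recombinase expressed in keratin 14-positive keratinocytes. Ovol1 and Ovol2 are zinc finger transcription factors of epithelia, and per the series text cells were cultured in order to see the primary effects of losing them. Both arrays of each group are titled as biological replicates.

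Levels are given as log2(intensity + 16), per gene and array. Differences are log2 differences of group means, with the standard error (SE) of a linear model over all 6 arrays (limma), n = 2 arrays per group. A gene passed at a Benjamini-Hochberg adjusted p under 0.05 over all 19938 genes, and only genes that passed are said to have fallen or risen. The highest array median of the probe sets without a gene name was 6.20, and levels at or under it are called near background.

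Several arrays went against their labels. Ovol1 read 10.75 and 9.80 in the KO-labelled pair, against 9.64 and 9.95 in control and 5.96 and 6.22 in Ovol1/2 DKO, so the label Ovol1 KO was not borne out by the Ovol1 signal. Ovol2 levels were 8.37 and 6.97 (control), 7.88 and 8.38 (KO-labelled) and 7.63 and 7.50 (Ovol1/2 DKO), and the gene did not pass (-0.10, SE 0.45). Whether either probe set lies in the deleted part is not known here, so directions below are those of the labels. All samples are labelled female, but Xist read 4.43 in replicate 1 of control and 4.54 in KO-labelled replicate 1, against 10.99 to 11.43 in the other arrays. The Y-linked Eif2s3y read 13.80 in KO-labelled replicate 1 and 4.80 to 5.14 in the others, control replicate 1 included, so these 2 arrays differed from each other as well. Median intensity per array ran from 103.3 to 109.8. As a check of cell type, 10 keratinocyte markers, such as Krt5 and Krt14, were averaged per array. The mean of the 10 was 11.61 and 11.45 in control, 11.36 and 11.38 in the KO-labelled pair, and 11.89 and 12.06 in Ovol1/2 DKO. None of the 10 passed between Ovol1/2 DKO and control. The 12 fibroblast markers had means of 6.59 to 7.37. Of these 12, 1 (Thy1) rose in Ovol1/2 DKO against control, by 1.67 (limma adjusted p = 0.0187). Means were 6.26 to 7.12 for 9 melanocyte markers, 6.34 to 7.06 for 8 leukocyte markers and 6.16 to 6.51 for 6 endothelial markers. In bulk RNA, fewer cells that make an envelope gene and less RNA per cell cannot be told apart.

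In the arrays labelled Ovol1/2 DKO, most envelope genes had lower levels than in control, and the family medians were lowest for Sprr1 (-4.81) and Sprr2 (-4.56). Of 39 members, 6 fell against control and none rose: Sprr1b, Sprr2d, Sprr2e, Sprr2h, Sprr2j-ps and Sprr2k. Over all genes 1.4% fell and 0.622% rose. The other 33 did not pass, although 38 of the 39 had a lower mean in Ovol1/2 DKO, and 34 had both Ovol1/2 DKO arrays below both control arrays (18.1% of all genes). The median difference of the members was -2.72, against 0.03 over all genes, and it ran from -5.50 to 0.12. In 31 members both Ovol1/2 DKO arrays lay below all 4 other arrays, as in 12% of all genes. Both Ovol1/2 DKO arrays were near background for 17 members, so the size of those differences depends on the offset added before the logarithm.

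**Figure D1:**
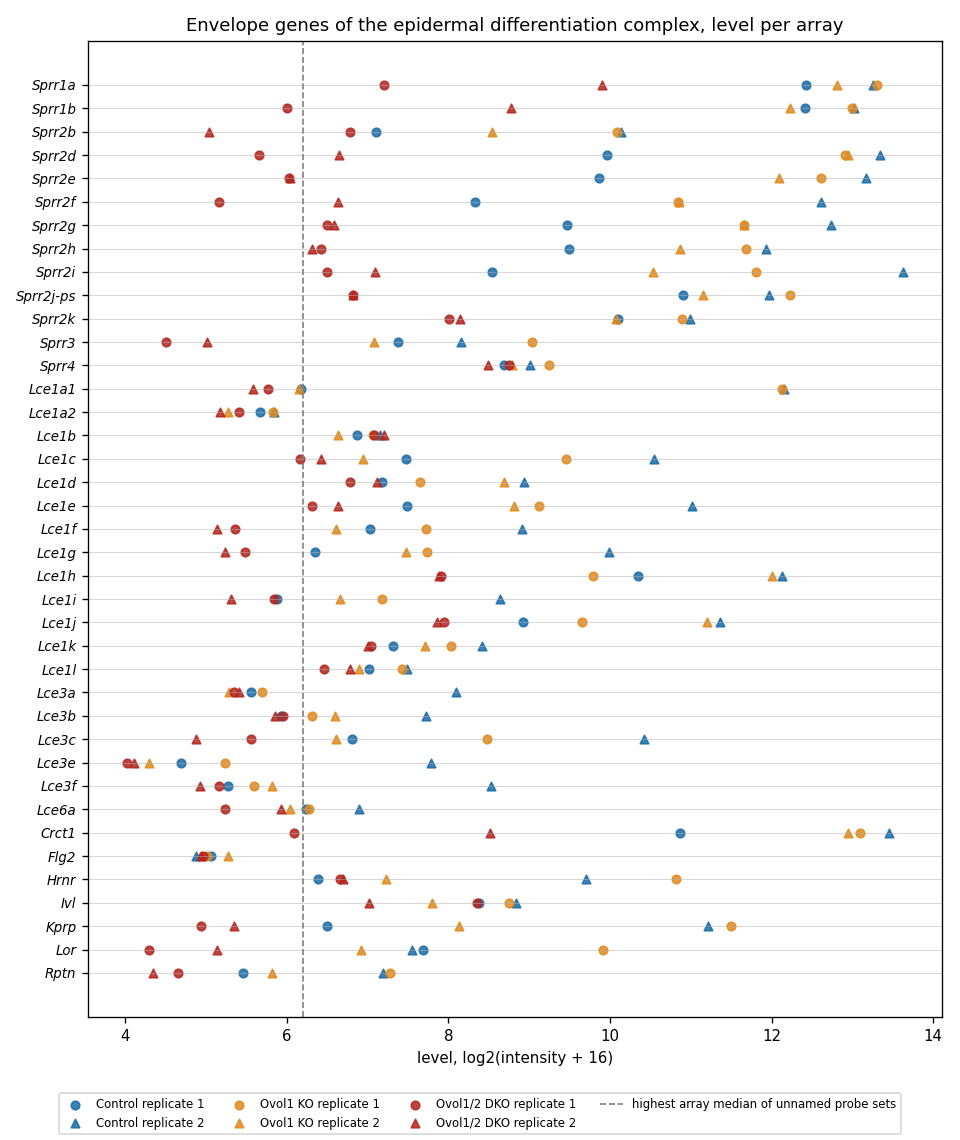
Level of each of the 39 envelope genes on each array, as log2(intensity + 16) on the horizontal axis. Colours are the 3 groups, circles replicate 1 and triangles replicate 2, and the dashed line marks 6.20. The red Ovol1/2 DKO points lie to the left of all other points for 31 genes, and the 2 control points of Lce1a1 lie at 6.18 and 12.16.

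The Sprr1 genes, which encode cross-bridging proteins of the envelope, had little spread in the arrays that kept Ovol1 signal. Sprr1b read 12.42 and 13.02 in control, 13.00 and 12.23 in the KO-labelled pair, and 6.00 and 8.78 in Ovol1/2 DKO. Sprr1a read 12.42 and 13.26 in control, 13.31 and 12.81 in the KO-labelled pair, and 7.20 and 9.90 in Ovol1/2 DKO. For both genes the 4 other arrays lay within 1 unit of one another and above both Ovol1/2 DKO arrays, which themselves stood 2.70 (Sprr1a) and 2.78 (Sprr1b) apart. Sprr1b fell 40.2-fold from control to Ovol1/2 DKO (-5.33, SE 0.83, limma adjusted p = 0.0314). Sprr1a was 4.29 lower (SE 0.81) and did not pass (limma adjusted p = 0.0577).

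The Sprr2 genes, a run of closely related copies, held 5 of the 6 members that fell against control. Sprr2d read 9.96 and 13.34 in control, 12.91 and 12.95 in the KO-labelled pair, and 5.66 and 6.64 in Ovol1/2 DKO. Sprr2e read 9.87 and 13.17, then 12.61 and 12.09, then 6.03 and 6.04 in the same order. Control replicate 1 was thus the lowest of the 4 arrays with Ovol1 signal for both genes, yet well above both Ovol1/2 DKO arrays. Sprr2d fell by 5.50 (SE 0.98, limma adjusted p = 0.0485) and Sprr2e by 5.49 (SE 0.93, limma adjusted p = 0.041).

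Sprr2h read 9.49 and 11.93 in control, 11.69 and 10.86 in the KO-labelled pair, and 6.43 and 6.31 in Ovol1/2 DKO, and fell 20.3-fold (-4.34, SE 0.73, limma adjusted p = 0.0395). The pseudogene Sprr2j-ps read 10.91 and 11.96 in control, 12.22 and 11.15 in the KO-labelled pair, and 6.81 and 6.82 in Ovol1/2 DKO. It fell 24.6-fold (-4.62, SE 0.45, limma adjusted p = 0.00849), the only member that passed under all 16 alternative settings. Some of these 16 settings repeat the same fit, as described below. Sprr2k, at 10.10 and 10.99 in control, 10.89 and 10.07 in the KO-labelled pair and 8.0 and 8.14 in Ovol1/2 DKO, fell by less, 5.55-fold (-2.47, SE 0.38, limma adjusted p = 0.0306), and stayed above the background level. The other 4 Sprr2 genes had differences of -2.71 (Sprr2b) to -4.57 (Sprr2f) and did not pass. The second pseudogene among them, Sprr2g, read 9.47 and 12.74 in control and 6.50 and 6.58 in Ovol1/2 DKO (limma adjusted p = 0.0711).

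Probe sequences were not at hand, so cross-reading between Sprr2 copies was not tested, and these 9 values may not be independent. Leaving out either KO-labelled array repeats the fit on the control and Ovol1/2 DKO arrays alone. In that fit Sprr1b (limma adjusted p = 0.057), Sprr2d (0.0898), Sprr2e (0.0764) and Sprr2h (0.065) no longer passed. Sprr2d, Sprr2e and Sprr2h also lost their call without either Ovol1/2 DKO array, Sprr1b without control replicate 2, and Sprr2k without control replicate 2 or either Ovol1/2 DKO array. Without either Ovol1/2 DKO array fewer members passed, and fewer of all genes did too.

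The promoters of the Sprr1 and Sprr2 genes shared letters that most Lce promoters did not hold. Windows of 250 bases before the start site were taken from RefSeq (GRCm38.p6) for 34 of the 39 members, and both strands were searched. The AP-1 motif TGANTCA, bound by Fos and Jun proteins, was found in both Sprr1 windows and in all 7 Sprr2 windows, in 0 of 12 Lce1 and in 0 of 5 Lce3 windows, and in 6.75% of all 32851 promoters. In the Sprr2 windows it lay at -198 to -193 bases from the start, with a second match at -182 in Sprr2k. The remaining matches were in Ivl, Lor, Flg2 and Rptn. The octamer ATTTGCAT, searched only after the sequences had been seen, was found in all 7 Sprr2 windows, in no other member and in 1.6% of all promoters. The letters of the TATA box, TATAAA, were found at any position in 17 of the 34 windows, and in 12.4% of all promoters. They were in all 9 windows of Sprr1 and Sprr2 and in 1 of 12 Lce1. At 20 to 40 bases before the start on the gene strand they were in 14 members, and in 1.99% of all promoters. Sprr3 held the TATA box but neither the AP-1 motif nor the octamer, and Sprr4 held none of the 3. These matches are descriptions of letters, not binding sites.

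The last 200 bases before the start are shown for the 5 genes with an entry that fell against control. They are also shown for Sprr4, Lce1a1 and Lce1h, which did not pass. Sprr1a and Sprr3, which fell only against the KO-labelled pair, are not shown. Sprr2b, Sprr2f and Sprr2i, not shown, hold the AP-1 motif, the octamer and the TATA box and did not pass in any comparison. Ivl and Lor, not shown, hold the AP-1 motif and the TATA box and did not pass either. Capitals mark the AP-1 motif, the octamer and the TATA box on either strand. The windows are Sprr1b at chr3:92438780-92438979 (minus strand), Sprr2d at chr3:92338940-92339139, Sprr2e at chr3:92351943-92352142, Sprr2h at chr3:92385485-92385684 and Sprr2k at chr3:92432382-92432581 (plus strand), and Sprr4 at chr3:92500494-92500693, Lce1a1 at chr3:92648308-92648507 and Lce1h at chr3:92765066-92765265 (minus strand).
Sprr1b: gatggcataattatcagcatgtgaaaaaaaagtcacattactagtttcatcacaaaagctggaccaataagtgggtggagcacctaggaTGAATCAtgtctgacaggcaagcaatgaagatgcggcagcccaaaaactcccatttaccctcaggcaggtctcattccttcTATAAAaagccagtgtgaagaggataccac
Sprr2d: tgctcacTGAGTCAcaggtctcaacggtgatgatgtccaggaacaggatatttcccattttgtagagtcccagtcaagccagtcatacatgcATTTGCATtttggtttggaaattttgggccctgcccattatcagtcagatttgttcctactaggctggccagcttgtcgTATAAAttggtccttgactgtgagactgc
Sprr2e: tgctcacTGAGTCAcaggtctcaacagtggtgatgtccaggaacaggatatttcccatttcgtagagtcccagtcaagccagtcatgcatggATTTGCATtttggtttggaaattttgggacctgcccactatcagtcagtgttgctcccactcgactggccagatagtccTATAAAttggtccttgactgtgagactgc
Sprr2h: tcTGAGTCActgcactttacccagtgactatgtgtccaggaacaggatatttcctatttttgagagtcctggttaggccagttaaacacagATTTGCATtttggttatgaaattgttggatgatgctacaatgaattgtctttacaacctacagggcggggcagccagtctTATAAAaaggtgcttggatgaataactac
Sprr2k: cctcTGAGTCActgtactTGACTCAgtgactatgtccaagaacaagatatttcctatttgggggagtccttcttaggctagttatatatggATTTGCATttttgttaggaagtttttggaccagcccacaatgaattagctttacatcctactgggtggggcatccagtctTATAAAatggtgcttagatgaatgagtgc
Sprr4: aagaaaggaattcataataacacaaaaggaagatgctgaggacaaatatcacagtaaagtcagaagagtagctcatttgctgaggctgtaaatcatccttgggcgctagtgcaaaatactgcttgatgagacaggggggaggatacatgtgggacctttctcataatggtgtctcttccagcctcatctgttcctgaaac
Lce1a1: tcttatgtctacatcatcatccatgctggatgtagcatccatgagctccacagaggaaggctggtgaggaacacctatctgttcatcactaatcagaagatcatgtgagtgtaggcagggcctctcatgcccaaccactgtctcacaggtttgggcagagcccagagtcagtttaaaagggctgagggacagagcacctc
Lce1h: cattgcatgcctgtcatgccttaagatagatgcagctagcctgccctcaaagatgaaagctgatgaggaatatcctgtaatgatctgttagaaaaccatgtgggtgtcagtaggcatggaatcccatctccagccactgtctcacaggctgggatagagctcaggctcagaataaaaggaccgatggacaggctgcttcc

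In these windows Sprr2d and Sprr2e share the AP-1 motif, the octamer and the TATA box at the same positions, and over 250 bases they are 89.3% identical, the closest pair of the 21 among the 7 Sprr2 windows (60.1% to 89.3%). Sprr2h and Sprr2k are 80.6% identical. Sprr4, Lce1a1 and Lce1h hold none of the 3 motifs in the bases shown. For the TATA box only the exact letters TATAAA were searched, so near matches were not counted. The reported core of the Ovol site, CCGTTA, was in 0 of 34 windows and in 2.18% of all promoters, and the Grhl motif AACCNGTT was in 1 window (Rptn) and in 1.79%. The Zeb E-box CACCTG was in 7 windows (Sprr1a, Hrnr, Lce1a2, Lce1k, Lce3c, Lce3e and Lce3f) and in 17.2% of all promoters. The short motifs CACCC (Klf) and GGAAG (Ets) were in 15 and 25 windows, and in 52.0% and 64.1% of all promoters.

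Sprr3, Sprr4 and involucrin did not pass against control. Sprr3 encodes a Sprr protein of stratified epithelia and lies between Sprr1b and Sprr1a. It read 7.37 and 8.15 in control, 9.04 and 7.08 in the KO-labelled pair, and 4.51 and 5.02 in Ovol1/2 DKO (-3.0, SE 0.62, limma adjusted p = 0.079). With the control and Ovol1/2 DKO arrays alone Sprr3 passed (limma adjusted p = 0.0213), and with replicate number as a block it did not (0.0941). Sprr4, next along the chromosome after Sprr1a, read 8.68 and 9.01 in control, 9.25 and 8.79 in the KO-labelled pair, and 8.75 and 8.50 in Ovol1/2 DKO, with overlapping groups and a difference of -0.23 (SE 0.25). Involucrin read 8.38 and 8.84 in control, 8.75 and 7.80 in the KO-labelled pair, and 8.35 and 7.01 in Ovol1/2 DKO (-0.93, SE 0.50, limma adjusted p = 0.692). Replicate 2 minus replicate 1 of Ovol1/2 DKO was -1.34, a larger gap than the difference between the means. Neither Sprr4 nor Ivl passed in any of the 3 comparisons.

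**Figure D2:**
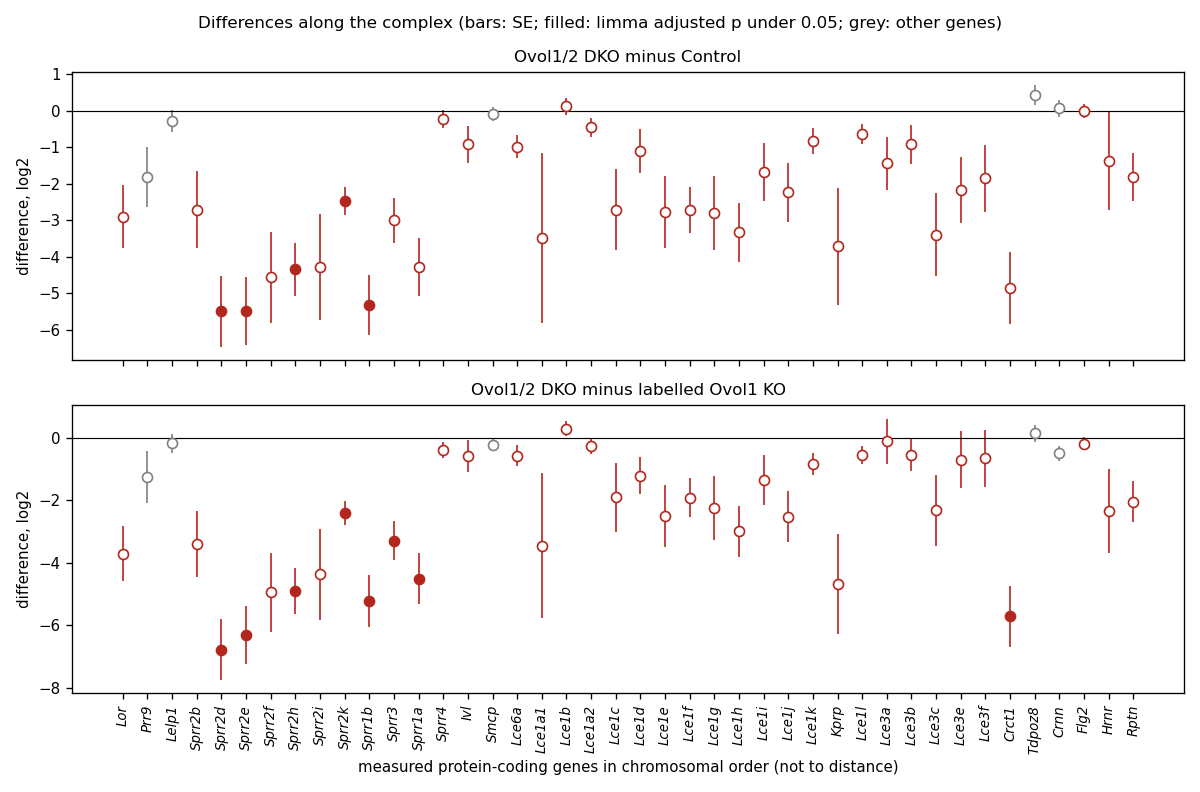
Log2 difference of Ovol1/2 DKO from control (top) and from the KO-labelled pair (bottom) for the measured protein-coding genes of the complex, in chromosomal order and not to distance. Bars are SE, filled points passed, and grey points are genes that are not envelope members. The filled points lie in the Sprr run, apart from Crct1 in the lower panel, while Sprr4 and Ivl at its end lie at -0.23 and -0.93 in the upper panel.

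The Lce1 genes, made late in cornification, did not pass in any of the 13 cases. Their median difference from control was -2.24 (range -3.49 to 0.12). Lce1h read 10.34 and 12.13 in control, 9.79 and 12.01 in the KO-labelled pair, and 7.91 and 7.89 in Ovol1/2 DKO (-3.34, SE 0.80, limma adjusted p = 0.128). All 4 other arrays were thus above both Ovol1/2 DKO arrays. Lce1f had the smallest adjusted p of the family (-2.72, SE 0.63, limma adjusted p = 0.112). Lce1b, in contrast, read between 6.63 and 7.20 on all 6 arrays and was the only member with a higher mean in Ovol1/2 DKO (0.12, SE 0.23). Lce1a2 was near background on all 6 arrays, so nothing can be read from it.

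None of the 5 Lce3 genes passed either, at a median of -1.86. Lce3c read 6.81 and 10.42 in control, 8.47 and 6.61 in the KO-labelled pair, and 5.56 and 4.88 in Ovol1/2 DKO (-3.40, SE 1.14, limma adjusted p = 0.307). Lce3a read 8.09 in control replicate 2 and at most 5.70 on the other arrays. Lce3e read 7.78 and at most 5.23, and Lce3f 8.53 and at most 5.81, so for these 3 genes only control replicate 2 stood above background. Lce6a read 6.24 and 6.90 in control, 6.27 and 6.04 in the KO-labelled pair, and 5.24 and 5.93 in Ovol1/2 DKO (-0.98, SE 0.32, limma adjusted p = 0.291).

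Of the 7 single genes, none passed against control, and they did not move alike. Crct1 read 10.87 and 13.45 in control, 13.10 and 12.94 in the KO-labelled pair, and 6.09 and 8.52 in Ovol1/2 DKO (-4.85, SE 0.99, limma adjusted p = 0.0756). Loricrin, the bulk protein of the mature envelope, read 7.69 and 7.55 in control, 9.92 and 6.92 in the KO-labelled pair, and 4.29 and 5.14 in Ovol1/2 DKO (-2.91, SE 0.87, limma adjusted p = 0.231). With the control and Ovol1/2 DKO arrays alone, which leaves out the gap of the KO-labelled arrays (replicate 2 minus replicate 1, -2.99), loricrin passed (limma adjusted p = 0.0199). Kprp read 6.50 and 11.21, then 11.50 and 8.13, then 4.93 and 5.35 in the same order of groups (-3.72, SE 1.60). Rptn read 5.46 and 7.19, then 7.28 and 5.82, then 4.65 and 4.34 (-1.83, SE 0.65). Both Ovol1/2 DKO arrays were the lowest for each of these 4 genes.

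Hrnr read 6.38 and 9.70 in control, 10.82 and 7.23 in the KO-labelled pair, and 6.66 and 6.69 in Ovol1/2 DKO, so control replicate 1 lay below both Ovol1/2 DKO arrays (-1.37, SE 1.35). Flg2 read 4.87 to 5.27 on all 6 arrays, near background. The 5 measured genes of the complex that are not members, Prr9, Lelp1, Smcp, Tdpoz8 and Crnn, did not pass, with differences of -1.82 to 0.42.

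Replicate arrays of the same label differed widely in these genes. Between the 2 control arrays the members' median gap was 2.43, against 0.28 over all genes, and 20 of 39 differed by more than 2, as did 0.597% of all genes. Control replicate 2 was the higher array for 37 of 39. In the KO-labelled pair the order was turned, with replicate 1 higher for 30 and a median gap of 0.77 (0.33 over all genes). In Ovol1/2 DKO the median gap was 0.25 (0.22 over all genes), and 3 members, Sprr1a, Sprr1b and Crct1, differed by more than 2, each higher in replicate 2. The mean level of the 39 genes was 7.78 and 9.97 in control, 9.28 and 8.45 in the KO-labelled pair, and 6.13 and 6.36 in Ovol1/2 DKO. For 20 members the gap between the control arrays was larger than the difference between the control and Ovol1/2 DKO means.

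The widest gaps were those of Lce1a1, at 6.18 and 12.16 in control, 12.12 and 6.15 in the KO-labelled pair, and 5.76 and 5.59 in Ovol1/2 DKO. A single array of each of the first 2 groups was thus high, and the other lay at the background level. Over the 30 members whose 4 arrays outside Ovol1/2 DKO spanned more than 1, the highest pair was control replicate 2 with KO-labelled replicate 1 for 21 (19.7% of all genes with such a span), among them Lce1a1, Lce1c, Kprp, Hrnr and Rptn. For 8 it was both replicate 2 arrays (16.4% of such genes): Lce1d, Lce1h, Lce1j, Lce3b, Lce3f, Sprr2d, Sprr2f and Sprr2g. Lce1j, for example, read 8.93 and 11.37 in control, 9.65 and 11.20 in the KO-labelled pair, and 7.95 and 7.86 in Ovol1/2 DKO. For Lor the highest pair was both replicate 1 arrays, as in 46.4% of such genes.

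**Figure D3:**
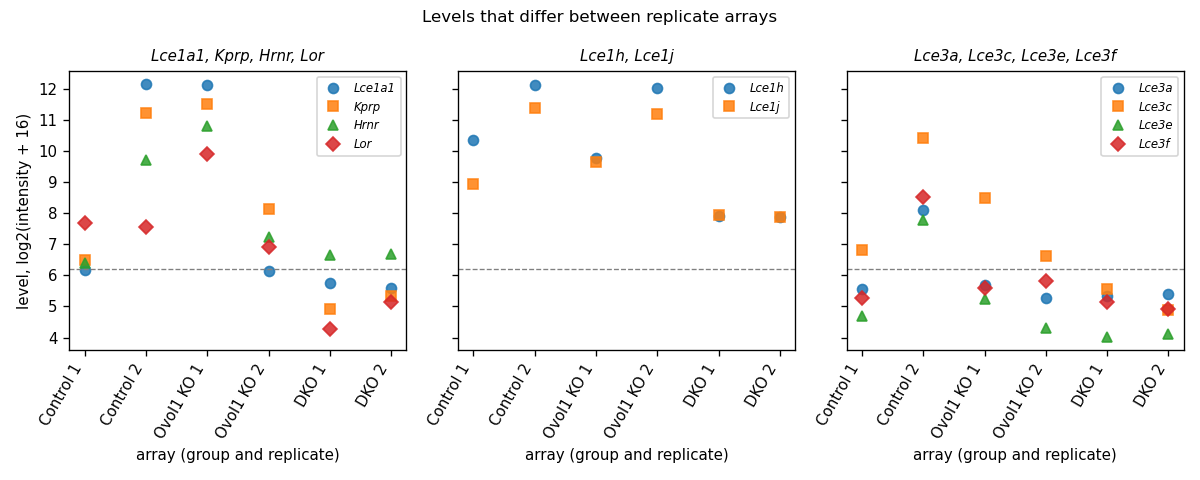
Level, as log2(intensity + 16), of 10 envelope genes on each of the 6 arrays, with the dashed line at 6.20. In the left panel Lce1a1, Kprp and Hrnr are high in control replicate 2 and KO-labelled replicate 1, in the middle panel Lce1h and Lce1j are high in replicate 2 of both groups, and in the right panel Lce3a, Lce3e and Lce3f are high in control replicate 2 only.

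Some other features of the arrays also differed between replicates. Control replicate 1 and KO-labelled replicate 1 were the arrays without Xist signal, and the first was low and the second high in the members. The mean level of the 12 fibroblast markers was 6.59 and 7.34 for control, 6.71 and 7.37 for the KO-labelled pair, and 6.93 and 7.35 in Ovol1/2 DKO, higher in each replicate 2. The 8 leukocyte markers had means of 6.35 and 7.06 in control, with Lyz2 at 4.80 and 8.18 and Ptprc, their defining gene, near background at 5.84 and 6.07. The part of these features in the members' values was not tested. With control replicate 2 as the lone control array, 20 members fell, all 6 named above included (1.71% of all genes fell). With control replicate 1 as the lone control array fewer of all genes fell, and fewer members did. Without both arrays that lacked Xist signal, 32 did (4.13%), but the spread then rested on the 2 Ovol1/2 DKO arrays, where the members varied least, and the lone arrays were assumed to vary like them.

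No envelope gene passed between control and the KO-labelled pair. By limma 0 of 39 members had an adjusted p under 0.05, as had 0% of all genes, and at an unadjusted p under 0.05 there were 0 members and 153 of all 19938 genes (0.767%). No member had non-overlapping groups, while 10.3% of all genes had both KO-labelled arrays below both controls and 8.82% had both above. The median difference was 0.00, with 19 members lower and 20 higher, and ran from -1.47 (Lce3e, SE 0.90) to 1.28 (Sprr2d, SE 0.98). The other 2 most positive were Hrnr (0.98, SE 1.35) and Kprp (0.95, SE 1.60), and the other 2 most negative Lce3a (-1.34, SE 0.73) and Lce3f (-1.20, SE 0.92). Without both arrays that lacked Xist signal, 10 members were called lower in the KO-labelled pair (0.1% of all genes), from 1 array against 1. Hrnr (-2.47, limma adjusted p = 0.0357) and Kprp (-3.09, limma adjusted p = 0.0273) then reversed their sign.

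Against the KO-labelled pair, the envelope genes of Ovol1/2 DKO were low again. Of 39 members, 10 fell and none rose, against 1.91% of all genes that fell and 1.24% that rose: Sprr1a, Sprr1b, Sprr2d, Sprr2e, Sprr2g, Sprr2h, Sprr2j-ps, Sprr2k, Sprr3 and Crct1. The 6 that fell against control are all among them, but the comparisons share the Ovol1/2 DKO arrays. The median was -2.35, against 0.02 over all genes. Sprr2d fell 109.8-fold (-6.78, SE 0.98, limma adjusted p = 0.0194), Sprr2e 79.6-fold (-6.32, limma adjusted p = 0.0204) and Crct1 52.6-fold (-5.72, limma adjusted p = 0.0335). Near background in Ovol1/2 DKO were both Sprr2e arrays (6.03 and 6.04), Sprr2d replicate 1 (5.66) and Crct1 replicate 1 (6.09). The size of these falls thus depends on the offset, and with an offset of 64 these genes did not pass. Sprr2d and Crct1 in replicate 2 of Ovol1/2 DKO, at 6.64 and 8.52, stayed above the background level. The fall of Sprr1a was 22.7-fold (-4.51, limma adjusted p = 0.0372) and that of Sprr3 9.85-fold (-3.30, limma adjusted p = 0.0439). Without KO-labelled replicate 1 fewer members passed, and fewer of all genes did. Without replicate 2 of that pair fewer members passed, while nearly as many of all genes did. Without either Ovol1/2 DKO array fewer members and fewer of all genes passed. Leaving out either control array repeats the fit on these 2 groups alone. In that fit 17 members passed (2.49% of all genes fell). Without both arrays that lacked Xist signal 23 did (3.38%).

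Other genes of envelope assembly were taken from a list of cross-linking, scaffold and shedding proteins, of which 15 were measured. Against control 2 fell (1.4% of all genes), none rose (0.622%) and 13 did not pass. They were Tgm1, the transglutaminase that joins envelope proteins, and envoplakin (Evpl), a plakin on which the envelope is built. Tgm1 read 11.74 and 12.35 in control, 12.40 and 12.05 in the KO-labelled pair, and 6.48 and 7.61 in Ovol1/2 DKO (-5.00, SE 0.41, limma adjusted p = 0.00551). Evpl read 8.79 and 9.10, then 9.19 and 9.16, then 6.75 and 6.63 (-2.25, SE 0.20, limma adjusted p = 0.00755). For both genes the Ovol1/2 DKO arrays were the lowest of the 6. The list median was -1.53, against 0.03 over all genes. Against the KO-labelled pair 4 fell (1.91% of all genes), these 2 together with periplakin (Ppl) and corneodesmosin (Cdsn).

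Of 11 spinous and suprabasal genes, 2 fell against control (1.4% of all genes), none rose (0.622%) and 9 did not pass. Serpinb2, a serine protease inhibitor of the suprabasal layers, fell by 3.47 (SE 0.36, limma adjusted p = 0.00948), and Dmkn, a secreted protein of differentiating keratinocytes, by 2.88 (SE 0.49, limma adjusted p = 0.0404). Their list median was -0.23, against 0.03 over all genes. The suprabasal keratins Krt1 (-0.28, SE 0.19) and Krt10 (-0.23, SE 0.20) did not pass.

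Transcription factors and chromatin regulators linked to the complex fell in part. Of 31 measured, 8 fell against control, 1 rose and 22 did not pass, with a median of -0.37. Over all genes 1.4% fell and 0.622% rose, with a median of 0.03. Those that fell were Ehf, Elf3, Hopx, Zfp750, Grhl1, Grhl3, Prdm1 and Ovol1 itself, and the repressor Zeb1 rose. Ehf, an epithelial Ets factor, read 10.52 and 11.03 in control, 11.46 and 10.92 in the KO-labelled pair, and 4.53 and 6.85 in Ovol1/2 DKO (-5.09, SE 0.69, limma adjusted p = 0.0214). Hopx, a homeodomain-only protein, fell by 4.25 (SE 0.75, limma adjusted p = 0.0477), Elf3, another epithelial Ets factor, by 4.14 (SE 0.38, limma adjusted p = 0.00755), and Zeb1 rose by 4.95 (SE 0.21, limma adjusted p = 0.00257). Ehf and Hopx, like Sprr1a, Sprr1b and Crct1, were more than 2 higher in replicate 2 than in replicate 1 of Ovol1/2 DKO. So were genes of envelope assembly that are not regulators: Asprv1 (5.19 and 9.96 in replicates 1 and 2), Cnfn (5.94 and 10.13) and Cdsn (5.37 and 7.63). The Fos and Jun genes of this list, Fos, Fosl1, Fosl2, Jun, Junb and Jund, did not pass and differed by -1.03 (Junb) to 0.08 (Jun). These are RNA levels, and a link between any regulator and the promoter motifs was not tested. Against the KO-labelled pair 8 fell and 2, Zeb1 and Trp63, rose (1.91% and 1.24% of all genes). Klf4, a barrier regulator, differed from control by -0.71 (SE 0.22, limma adjusted p = 0.238).

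**Figure D4:**
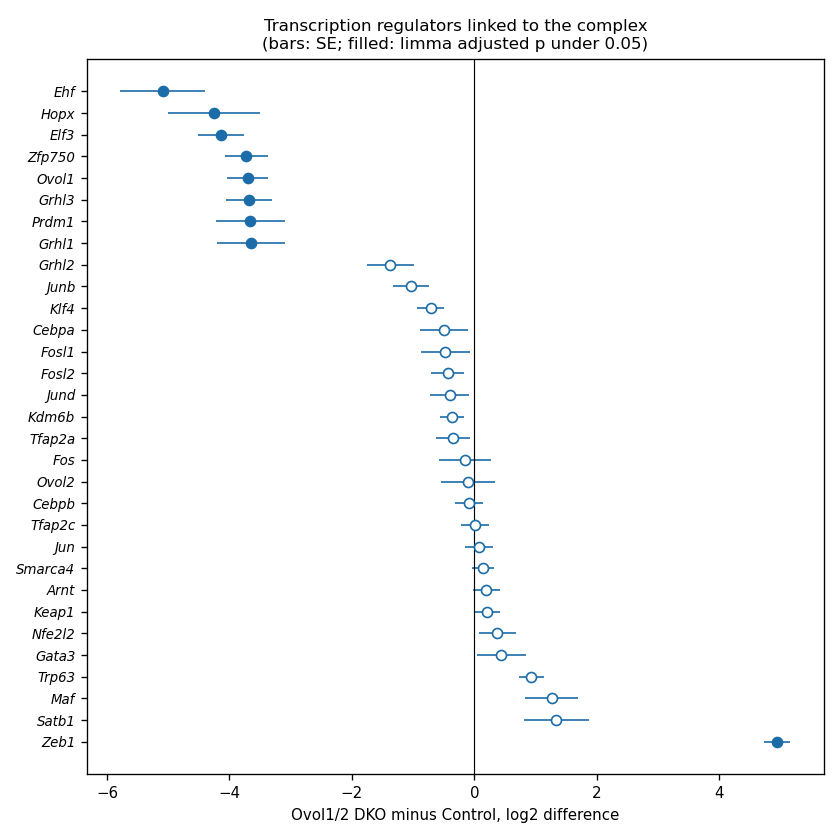
Log2 difference of Ovol1/2 DKO from control for 31 regulators linked to the complex, in order of size. Bars are SE and filled points passed, with 8 filled points from -5.09 (Ehf) to -3.65 (Grhl1) on the left and Zeb1 at 4.95 on the right.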

How the data were processed

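The authors deposited 1 linear intensity per probe set and array, made with Affymetrix Expression Console 1.1.1 and PLIER 2.0 per the submitters' processing notes. How background was corrected and arrays were normalized is not given in the sources used here. Of 35556 probe sets, 21789 had 1 gene symbol in the platform annotation, 1621 several and 12146 none. Symbols were updated by Entrez identifier (GRCm38.p6), 91 identifiers had no match, and the brightest probe set was kept for the 999 genes with several.

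Log2(intensity + 16), taken here from the deposited values, was fitted in one linear model over 6 arrays (limma 3.58.1, R 4.3.3, lmFit and eBayes, 3 residual and 3.68 prior degrees of freedom), and tested on simulated data. With 2 arrays against 2, no exact two-sided p can fall below 0.333, so the tests rest on pooled spread. Precision is limited by the number of arrays. For Ovol1/2 DKO against control the median SE was 0.245 over all genes. Among the members the SE ran from 0.20 (Flg2) to 2.32 (Lce1a1), above 0.245 for all but Flg2 and Lce1b. Whether replicates were separate cultures is not stated beyond their label, so p-values measure the spread between these arrays.

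Members and gene lists were chosen with earlier results of these data known. Named were passing members, the single genes, the brightest of each family and the 3 largest differences per direction and comparison. From each list up to 4 passing genes, or else 2, were named. Named after their values were seen were Lce1a1, Lce1f, Lce1j, Lce1a2, Sprr2b, Sprr2f, Sprr2i, Ppl, Cdsn, Cnfn and Asprv1. The same holds for Krt1, Krt10, Klf4, Junb, Jun, Lyz2, Ptprc and the further genes given only in counts. Proteins were not printed. The alternatives are given in the closing section.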

Additional observations from a re-analysis of the deposited data

How the results depend on the processing

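In this paragraph counts are genes passing limma at an adjusted p under 0.05, for Ovol1/2 DKO against control and then against the KO-labelled pair, with 6 and 10 envelope genes (403 and 628 of all genes) as the values to compare. The numbers of envelope genes were 3 and 6 with quantile normalization (307 and 543 of all genes). They were 1 and 1 with an offset of 64 (155 and 311 of all genes). With an intensity trend and robust variance fewer envelope genes passed, 2 and 4, while more of all genes did (482 and 714). With only the groups compared, 4 and 17 envelope genes passed (410 and 831 of all genes). Of the 6 in the first comparison 2 were kept, and of the 10 in the second all 10. Leaving out single arrays gave 2 to 20 and 1 to 17 envelope genes, 99 to 455 and 135 to 831 of all genes, and member medians of -3.67 to -1.02 and -2.78 to -1.73. For the KO-labelled pair against control the medians ran from -0.77 to 0.73 and the genes passing from 0 to 3. Without the 2 arrays lacking Xist signal, 32 and 23 envelope genes passed (1395 and 1508 of all genes), and in the remaining comparison 10 of 20. Hrnr (-2.47) and Kprp (-3.09) then reversed there. With replicate number as a block, 9 and 11 envelope genes passed (597 and 1022 of all genes), including all 6 of the first comparison and 9 of the 10 of the second, without Sprr3 (adjusted p = 0.0531). Calls gained were Crct1 (adjusted p = 0.0261), Lce1h (0.0385) and Sprr1a (0.0412) against control, and Lce1h (0.0381) and Sprr2f (0.046) against the KO-labelled pair. Replicate numbers pair no animals in the labels. Deviations from group means correlated between same-numbered arrays at 0.26, 0.49 and 0.19. Median centring, an offset of 1, all probe sets, and leaving out dim genes kept the counts of envelope genes within 1.5-fold. The cause of these shifts was not tested. Over the named members and all settings, a call was lost 84 times and gained 47 times.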
